A study of Mus musculus with 60 samples.

Results

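Genes with a single exon row are the genes that the deposited exon table lists with exactly 1 row, so that their gene value and their exon value describe the same stretch of the genome. Row names of the exon table were read as a gene identifier and a start position, parted at the last low line character, and genes with 1 row were kept. Mitochondrial genes, ribosomal protein genes (Rpl and Rps), potassium channel genes (Kcn) and zinc finger genes with a Zfp symbol were left out, which removed 18 of 724 such genes. The remaining 706 genes were followed here, of 9066 genes in the gene table, and 8342 genes had 2 or more exon rows.

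The data came from the striatum, the input nucleus of the basal ganglia, of 60 HS-CC mice, a heterogeneous stock formed from the founder strains of the Collaborative Cross. The animals followed generations of selective breeding for their response to haloperidol, an antipsychotic that blocks dopamine D2 receptors and induces catalepsy, a state in which an animal holds an imposed posture. By the labels' catalepsy phenotype 13 females were non-responders and 15 responders, while 17 of the males were non-responders and 15 responders. No genotype, transgene, age, dose or interval is given, and each mouse is 1 polyA-selected library. Reads on genes per mouse ranged from 4913122 to 21872744, and the members took 1.33 to 2.40% of them.

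Most mammalian genes are split by introns, and a gene read as a single exon usually belongs to one of a few kinds. Some are true intronless genes, such as histones, SOX and POU transcription factors, and clustered protocadherins. Others are retrocopies, formed when a spliced messenger RNA was reverse transcribed and inserted elsewhere, where most became processed pseudogenes, and a further kind is the small RNA gene, a snoRNA or miRNA hairpin that often lies in the intron of a longer host transcript.

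By the GENCODE M21 annotation, 376 of the 706 members were pseudogenes, 364 of them processed pseudogenes. A further 144 were protein coding, 38 long non-coding RNAs, 37 miRNA hairpins and 39 other small RNAs, of which 26 were snoRNAs and 8 scaRNAs, the guide RNAs of Cajal bodies. The other 72 members carried identifiers that are not in this annotation and were used as the files give them. The exon rows were made from other gene models than this annotation, so 1 row can go with several annotated exons. Of the 634 members with an annotation, 564 had 1 block of exon there and 70 had more. Among the latter were Usp29 with 14 and Ccdc149 with 13. The gene value of a member equalled its 1 row up to rounding, and which blocks that row covers was not tested. Values per kilobase below divide by the whole annotated exon length, so they are uncertain where the rows cover less. All 76 small RNA genes had 1 block, whereas 29 of the 38 long non-coding genes had several.

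Before the values, 3 sets of member sequences are given. The first set is a pair annotated as miRNA hairpins, Gm24245 at chr4:139338304-139338360 and Gm23935 at chr16:11144125-11144181 (GRCm38, plus strand, GENCODE M21). They are shown because they were among the most variable members, and whether their reads come from miRNA hairpins was not tested. Capitals mark bases identical in both, which are all 57 bases, and 3 annotated genes consist of this same sequence.
Gm24245: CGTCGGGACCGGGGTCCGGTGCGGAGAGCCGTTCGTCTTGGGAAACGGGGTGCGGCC
Gm23935: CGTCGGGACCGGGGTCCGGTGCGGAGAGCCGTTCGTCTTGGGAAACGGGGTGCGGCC

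The second set holds 3 box C/D snoRNAs, a class that guides the methylation of ribosomal and spliceosomal RNA through 2 short boxes. Capitals mark the first TGATGA (box C) and the last CTGA (box D) on the transcript's own strand. Snord64 lies at chr7:59978808-59978874 and Snord107 at chr7:59980876-59980945, both on the minus strand inside the imprinted Snrpn region, and Snord104 lies at chr11:106500993-106501062 on the plus strand. Of the 26 snoRNA members 10 held TGATGA before CTGA, as did 24% of the 1507 annotated snoRNA transcripts, and on the opposite strand the shares were 0 of 26 and 0.133%.
Snord64: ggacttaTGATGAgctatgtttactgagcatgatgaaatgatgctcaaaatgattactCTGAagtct
Snord107: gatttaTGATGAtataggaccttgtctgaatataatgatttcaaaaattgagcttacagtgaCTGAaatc
Snord104: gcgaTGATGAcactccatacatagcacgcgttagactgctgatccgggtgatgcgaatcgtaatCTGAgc

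Mature miRNAs of the hairpin members form the third set. Of 37 hairpins, 30 matched a RefSeq entry (GRCm38.p6) by symbol, with 58 mature sequences and 56 different seeds, bases 2 to 8, which pair with target messages and are in capitals below. Only 2 seeds were held by 2 mature sequences, miR-379-5p with miR-1193-5p and miR-453 with miR-496a-5p, and all of these come from the imprinted cluster on chromosome 12 that holds 19 of the hairpin members. miR-134-5p and miR-541-5p are from the same cluster, while miR-3091-5p (chr2:180257547-180257567) and miR-344-3p (chr7:61940036-61940058) belong to the only hairpins with a Mir symbol that averaged at least 10, Mir3091 and Mir344-2.
mmu-miR-379-5p: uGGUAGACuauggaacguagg
mmu-miR-1193-5p: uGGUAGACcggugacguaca
mmu-miR-453: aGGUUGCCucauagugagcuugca
mmu-miR-496a-5p: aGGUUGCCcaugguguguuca
mmu-miR-134-5p: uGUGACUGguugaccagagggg
mmu-miR-541-5p: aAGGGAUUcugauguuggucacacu
mmu-miR-3091-5p: cAUGGGUCugguugggcccgc
mmu-miR-344-3p: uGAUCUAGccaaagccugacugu

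Libraries that stood apart are given first, because they touch several results. Mice numbered 41 to 56 (16 mice, 4 of each group) had 4913122 to 9507322 reads on genes, and the other 44 mice 8271156 to 21872744, of which mouse 26 was the lowest and the only one with a total inside the range of mice 41 to 56. A second set of 4 mice, numbers 4, 5, 62 and 63, had strong 3′ bias. The bias is the rise in log2 exon value, relative to the mean of all mice, from the first to the last exon of a gene, taken as the median over genes with at least 5 exon rows. It was 0.68, 0.91, 0.48 and 1.48 in these mice, where the median of the 44 mice was 0.01 and that of mice 41 to 56 was -0.25. Each of these 4 mice came from a different group of sex and phenotype. The 12 genes in the table that mark striatal projection neurons, such as dopamine receptor genes, summed to 79690 to 174800 per mouse, and the 3 cortical markers to 1496 to 6956. The 7 astrocyte markers summed to 89250 to 181800, the 5 microglia markers to 3181 to 8122, the 1 endothelial marker to 671.9 to 1625 and the 1 marker of thalamus and hypothalamus to 57.06 to 323.5, the last with a median of 140.1 in mice 41 to 56 and 99.51 in the others. No gene of the choroid plexus or red blood cell lists was among the genes analysed here, and in such bulk tissue fewer cells of a type and less RNA per cell cannot be told apart.

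Gene values are reads divided by an upper quartile size factor, so 1 read was worth 0.641 to 2.77 in different mice. Over the members the mean gene value ran from 1.19 to 12169 with a median of 30.2, against a median of 697 for genes with 2 or more exon rows. No member was at 0 in every mouse, 429 averaged at least 10 and entered the tests, and 277 averaged less. Protein coding members had a median of 236, pseudogenes 40.8, members outside the annotation 11.8, other small RNAs 5.54, long non-coding RNAs 4.96 and miRNA hairpins 4.63. Pseudogenes took 49.2% of all reads on members and protein coding genes 38.2%.

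**Figure D1:**
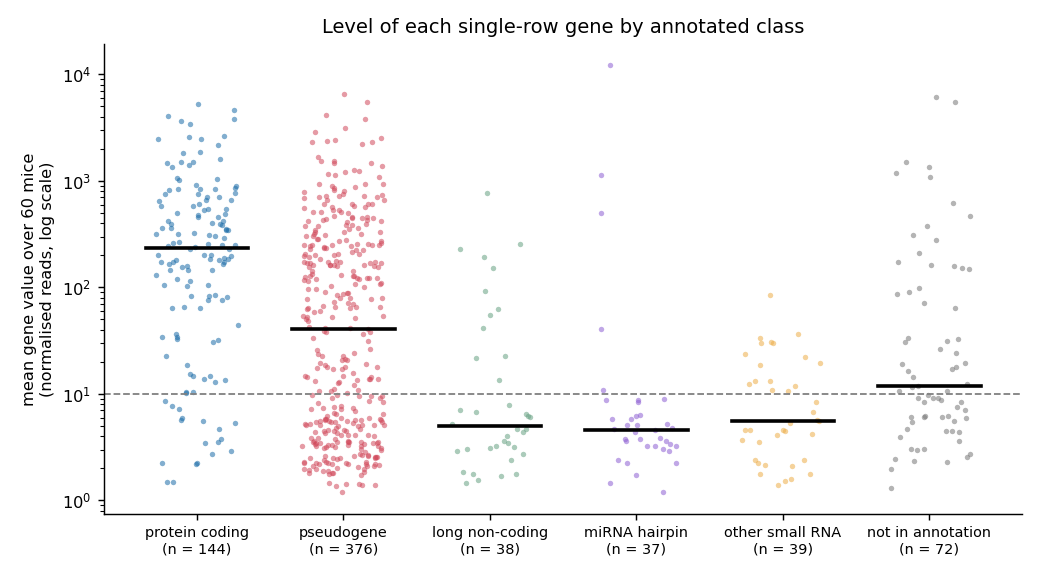
Mean gene value over 60 mice (vertical axis, log scale) of each of the 706 members, one point per gene, by annotated class, with the class median as a black bar and the minimum of 10 for testing as a dashed line. The medians run from 4.63 for miRNA hairpins to 236 for protein coding genes.

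The exon and gene values agreed up to rounding. The largest difference of the 2 values in any mouse was 0.5, and in 594 of 706 members (84.1%) the mean exon value was within 1% of the mean gene value. The 112 members further off averaged at most 7.63, and only 3 of them were off by over 5%. Among the members averaging at least 50 the ratio of exon to gene value ran from 0.99812 in Gm266 to 1.0016 in Gm11598. The next furthest from 1 were Gm10232, Gm17354, Gm15186, Gm5526, Gm16054 and Gm8894, all averaging between 54.9 and 78.9. Asking for agreement within 1% in each of the 60 mice left 290 members, the lowest of which averaged 62.6.

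The 8 members of highest gene value, not adjusted for length, were led by Gm24245, whose mean of 12169 hid 2 separate ranges described below. The pseudogene Gm1840 averaged 6605 ± 861 (SD, n = 60), with 4502 in the lowest mouse, 6557 in the median and 8586 in the highest. Its transcript matched Gpi1, a glycolytic enzyme, at 98.7% identity over 73.0% of its length, and Gpi1 itself averaged 1677. The creatine kinase retrocopy Gm12892 averaged 5567 ± 828 and the Rpl13a retrocopy Gm11478 averaged 4161 ± 1461. Of the others, ENSMUSG00000049647 averaged 6146 and ENSMUSG00000093077 averaged 5492. The mean of ENSMUSG00000093077 also hid 2 ranges, with means of 19950 in mice 41 to 56 and 233.8 in the other mice. The protein coding genes Tspyl1, a nucleosome assembly protein relative, and Epm2aip1, which binds the phosphatase laforin, averaged 5234 and 4634. Per kilobase of annotated exon the 5 highest began with Gm24245 at 213497 and Gm23935 at 19892. As gene values Gm23935 averaged 4217 in mice 41 to 56 and 12.8 in the other mice, so its rank rests on the former. The next were the Calm2 retrocopy Gm15720 at 8408, the Fau retrocopy Gm9843 at 7847 and the Cfl1 retrocopy Gm6180 at 7666.

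Among the protein coding members, the transcription factors named here were measured in every mouse, and whether each lacks introns was not tested. Olig1, which directs oligodendrocyte development, ranged from 1603 to 3689 with a median of 2462, and Pou3f3, a neuronal POU factor, from 1440 to 2278 with a median of 1769. Sox2, a stem cell and glial factor, had a median of 717 (lowest 536, highest 1085), Id1, an inhibitor of helix-loop-helix factors, 177 (105 to 309), and the AP-1 subunit Jund 1029 (690 to 1461). Per kilobase these genes stood at 1144 for Olig1, 625 for Jund, 364 for Sox2, 246 for Pou3f3 and 158 for Id1. None of the 5 tested members of the list of intronless developmental transcription factors, nor Jund, passed a test between phenotypes.

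Receptors, adhesion proteins and adaptors made up a second group. Adra2c, the alpha-2C adrenergic receptor that is abundant in striatum, had a median of 1479 (957 to 2599). Chrm3, the M3 muscarinic receptor, had 526 (178 to 1073), although M21 gives it 6 exon blocks. Slitrk1, a synaptic adhesion protein, ranged from 733 to 2609 with a median of 1496, and Lrrc10b from 2099 to 7560 with a median of 3841. Of the other leucine-rich repeat members, Amigo3 had a median of 72.6 and Lrrc8dos, annotated as antisense, averaged 3.19. Klhl34, a kelch protein, had a median of 1400 and a lowest mouse at 401, Zbtb26 a median of 260 and the RING finger gene Rnf113a1 169.6. Rprml, a reprimo relative, had a median of 853 (546 to 1440). The MAGE family gene Magee1 had a median of 3521 (2150 to 4959), Mageh1 865 (615 to 1488), and Rtl6, a domesticated retrotransposon gene, 1878 (1428 to 2389). Imprinted members were Usp29, with a median of 850 (179 to 1559), and the retrogene Mcts2, with 174 (122 to 308). Among clone-named genes the highest means were 772 for B930095G15Rik, 256 for 5031425E22Rik, 229 for 4930526A20Rik and 203 for 1700123O20Rik.

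Histone genes, whose canonical messages lack a polyA tail, gave 9 members, of which 5 averaged at least 10. H2afx, the variant phosphorylated at DNA breaks, had a median of 503 (352 to 871) and H2afj 441 (268 to 845). Hist3h2ba had a median of 149 (101 to 261), whereas the linker histone Hist1h1e had 22.4, ranging from 3.503 to 121. In mice 41 to 56 Hist1h1e lay between 31.1 and 121 and in the other 44 mice between 3.503 and 34.4. Its annotated exon overlaps those of Gm11398 and Hist1h2be on the same strand, so its reads are not certain to be its own.

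Genes of the Pcdhb cluster encode cell adhesion proteins, each from its own single exon, that give neurons distinct surface identities. All 12 Pcdhb members passed the filter, with means from 83.5 for Pcdhb4 to 424 for Pcdhb19, 398 for Pcdhb16 and 264 for Pcdhb18. Longer annotated genes on the same strand contain them, so reads of those cannot be told apart. In mice 41 to 56, set apart by read total, 11 of the 12 were higher and none lower (limma), where 25.8% of all genes were higher, and Pcdhb2 had an adjusted p of 0.0918. The values of different Pcdhb genes moved together over the mice: the Pearson correlation of log2 values had a median of 0.59 over 66 pairs of genes, a description over mice that share libraries and depth. In the 44 other mice the log2 change per unit of 3′ bias ran from -1.99 for Pcdhb2 to -0.31 for Pcdhb12. By limma 11 of the 12 fell, where 34.2% of all genes did, and Pcdhb12 was not called (adjusted p 0.13). These calls rest on mice 4, 5, 62 and 63, without which 0% of all genes were called. The part of the bias in the correlation was not tested. The correlation was highest for Pcdhb19 with Pcdhb16, at 0.93, and lowest for Pcdhb14 with Pcdhb2, at 0.13. Pcdhb14 ranged from 41.1 to 387 with a median of 252, and Pcdhb2 from 10.6 to 245 with a median of 99.5.

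Retrocopies are described next to the genes they were copied from. A copy was called where blastn aligned at least 80% of a member's transcript to a transcript of a non-overlapping gene at 90% identity or more, and 241 of 376 pseudogenes had such a copy in a protein coding gene, 14 of them without a mismatch. The Fau retrocopy Gm9843 averaged 3154 ± 961 (1864 to 6712), and all of its 402 bases occur in 6 annotated Fau transcripts, Fau being a ubiquitin-like ribosomal protein fusion. Fau was not analysed here. The first 120 bases of Gm9843, at chr16:76403533-76403652 on the minus strand (GRCm38), are shown with the ATG that opens the copied reading frame in capitals, because over this stretch the letters alone cannot tell a read of the pseudogene from one of Fau.
Gm9843: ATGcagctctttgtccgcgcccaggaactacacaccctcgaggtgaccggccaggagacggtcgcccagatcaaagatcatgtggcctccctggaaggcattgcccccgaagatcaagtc

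For 139 of these 241 pseudogenes the closest coding gene was among the genes analysed, and 127 of the pairs had a pseudogene averaging at least 10. The pseudogene value exceeded that of its coding copy in 39 of 127 pairs, and per kilobase of annotated exon in 87, with a median ratio of 0.436 on gene values and 2.27 per kilobase. As gene values, not per length, Gm6863 averaged 1474 where Naca, a nascent chain chaperone subunit, averaged 148. Gm7658 averaged 1131 against 86.2 for the translation factor subunit Eif3m, Gm15920 averaged 904 against 98.7 for the complex I subunit Ndufa12, and Gm11478 averaged 4161 against 911 for Rpl13a. In the other direction Gm13050 averaged 2300 against 16930 for the elongation factor Eef2. Whether only uniquely aligned reads were counted is not given in the sources used here, so the values of a retrocopy and its source gene are uncertain wherever they are near-identical.

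**Figure D2:**
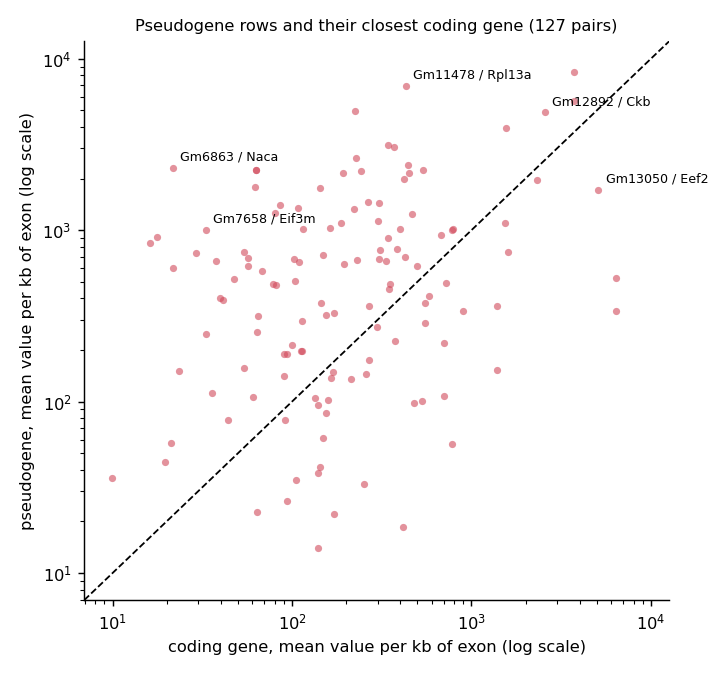
Mean value per kilobase of annotated exon of 127 pseudogene members (vertical axis, log scale) against that of the closest coding gene (horizontal axis, log scale), one point per pair, with the line of equal values dashed. Most pairs, 87 of 127, lie above the line.

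Over the 60 mice the log2 values of pseudogene and coding copy correlated with a median Pearson r of 0.62 across the 127 pairs (lowest -0.44, highest 0.96). The median was also 0.62 over the 40 mice left without numbers 41 to 56 and the 4 mice of strong 3′ bias. These pairs share libraries, depth and possibly reads, so r is a description. Gm11478 followed Rpl13a at 0.93 and Gm12988 followed Skp1a at 0.93. The Naca copy Gm6863 had r of -0.29 over all mice and 0.28 over the 40 mice.

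The spread between mice was wider for members than for other genes. The coefficient of variation, SD over mean, had a median of 0.251 over the 429 members averaging at least 10 and of 0.16 over the 8106 other genes with that average. Without mice 41 to 56 and the 4 mice of strong 3′ bias it was 0.191 against 0.132. The members' values were also lower, and the part of level in this difference was not tested. By class, medians over all mice were 0.223 for protein coding genes, 0.242 for pseudogenes, 0.276 for long non-coding RNAs, 0.686 for miRNA hairpins and 0.8 for other small RNAs. Over the same members, without mice 41 to 56 and the 4 mice of strong 3′ bias, the last 2 were 0.431 and 0.416, in the reverse order. Those of protein coding genes, pseudogenes and long non-coding RNAs were 0.158, 0.183 and 0.246. The minimum of 10 was taken over all mice, so members high only in mice 41 to 56 entered with a wide spread. Outside mice 41 to 56, 9 of 16 other small RNAs, 4 of 5 miRNA hairpins and 387 of the 429 members averaged at least 10. The part of this selection in the class medians was not tested.

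Of the 278 members averaging at least 100 the least variable was Gm9816, a copy of the signalosome subunit Gps1, at a CV of 0.0993 (1363 to 2138). It was followed by Pou3f3 at 0.111, the splicing factor Srsf2 at 0.112, and Jrk and the ribosome biogenesis factor Utp3, both at 0.117. The 8 most variable began with Gm23935 at 1.87, ENSMUSG00000093077 at 1.76 and Gm24245 at 1.76. The next were the pseudogenes Gm12389 at 0.465 and Gm5963 at 0.450, then Pcdhb2 at 0.447, the Rpl22 retrocopy Gm12005 at 0.396 and Tmem200a at 0.388. Gm5963, a copy of Rps21, ranged from 20.5 to 973 with a median of 383, and Gm12005 from 6.55 to 206 with a median of 98.3.

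The 3 most variable members split the mice by number without overlap. Gm24245 lay between 26500 and 85020 in mice 41 to 56, with a median of 38180, and between 133 and 1506 in the other 44, with a median of 436. Gm23935 lay between 1555 and 8013 in those 16 mice and between 0 and 51.1 in the others. ENSMUSG00000093077 lay between 11280 and 36760 against 69.7 to 678. Mouse 26, of similar read total, had 883 for Gm24245 and 17.3 for Gm23935, inside the lower range. On the log2 scale the differences were 6.60 ± 0.19 for Gm24245 and 8.43 ± 0.27 for Gm23935 (limma, estimate ± SE).

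**Figure D3:**
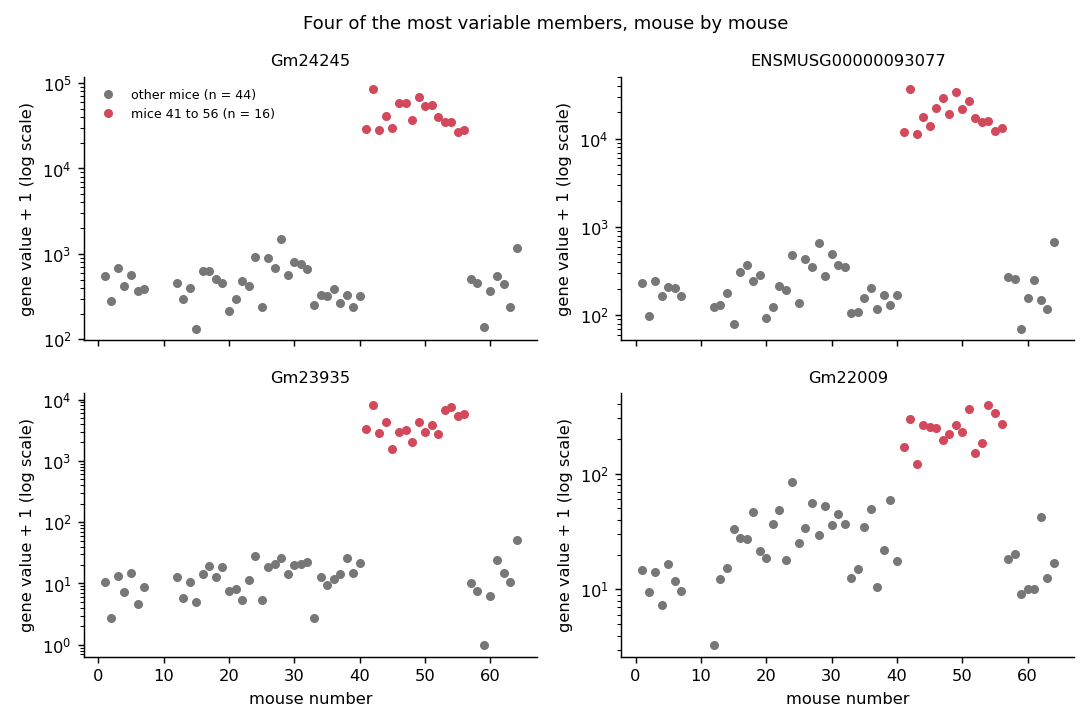
Gene value plus 1 (vertical axis, log scale) in each of 60 mice against the mouse number for Gm24245, ENSMUSG00000093077, Gm23935 and the scaRNA Gm22009, with mice 41 to 56 in red and the other 44 in grey. In each panel all 16 red points lie above all grey points, as for Gm24245 with 26500 and above against 1506 and below.

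Genes of the whole table whose log2 values were most like those of Gm24245 over the 60 mice were ENSMUSG00000093077 (Pearson r 0.997), Lars2 (0.994) and Gm23935 (0.980). For Gm23935 they were Gm15564 (0.990), Lars2 (0.988) and Gm24245, and for ENSMUSG00000093077 they were Gm24245, Lars2 (0.994) and Gm23935. Within the 44 other mice, where the step between the sets plays no part, Gm24245 still had r of 0.944 with ENSMUSG00000093077, 0.878 with Lars2 and 0.714 with Gm23935.

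Many members differed between mice 41 to 56 and the others in a fit with sex and phenotype as terms (limma, adjusted p under 0.05 over all 8535 genes tested). Of the 429 members 128 were higher in mice 41 to 56 and 215 lower, or 343 in all, where 25.8% of all genes tested were higher and 27.9% lower. Some of the 128 had reached an average of 10 only through those mice: of the 387 members averaging at least 10 in the other 44 mice, 86 were higher and 215 lower. The directions differed in number between classes: 152 of 231 pseudogenes were lower and 35 higher, while protein coding members divided into 48 lower and 43 higher. Of the 16 other small RNAs tested 15 were higher and none lower, and of the 12 long non-coding RNAs 11 were higher and 1 lower. Among those averaging at least 10 in the other 44 mice, 8 of 9 other small RNAs and 8 of 9 long non-coding RNAs were higher. The members' median log2 difference was -0.18 against -0.02 for all genes. With 3′ bias as a further term 83 members were higher and 100 lower, where 10.3% of all genes were higher and 8.11% lower.

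Values of all 16 mice lay above those of all 44 others for 28 of 429 members, and for 1.45% of all genes tested. No member lay below in this way, as for 0% of all genes. Of the 28, only 6 averaged at least 10 in the other 44 mice, so 22 had entered the tests through the mice in which they were high. The scaRNA Gm22009, inside the intron-containing gene Kpna4, was at 120 to 387 in mice 41 to 56 and 2.33 to 83.5 in the others, with a log2 difference of 3.47 ± 0.25. Scarna2 was at 28.6 to 154 against 0 to 17.2. It averaged 4.15 in the other 44 mice, so it had entered the tests through mice 41 to 56. The long non-coding RNA 4632427E13Rik overlapped only at the edge, with 110 to 309 against 20.4 to 112. Read totals moved with the mouse numbers, and the 2 cannot be told apart within mice 41 to 56. Mouse 26 had 33.1 for Gm22009 and 4.73 for Scarna2, inside the lower ranges. For 4632427E13Rik it had 112, the highest of the other 44 mice.

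The box C/D snoRNAs shown above differed in size. Snord64 had a median of 44.1 in mice 41 to 56 (35.4 to 63.1) and of 23.96 in the others (5.79 to 48.8), a log2 difference of 0.97 ± 0.16. Snord107 had medians of 20.5 and 9.46, with a log2 difference of 0.85 ± 0.19. Snord104 was the only one of the 16 tested small RNAs other than hairpins that was not called, with medians of 29.2 and 26.5 and a log2 difference of 0.00 ± 0.17. The libraries were polyA-selected, and whether reads at these rows measure the mature small RNA was not tested.

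Hairpins of the imprinted cluster on chromosome 12, where maternally inherited long transcripts host miRNAs and snoRNAs, averaged under 10 each and were not tested. Their 19 values summed to 144 to 347 in mice 41 to 56, with a median of 224, and to 8.62 to 64.6 in the other 44 mice, with a median of 36.7. By position, 7 hairpins inside Mirg (109733771 to 109742498, GRCm38) had mean values 2.52 to 9.52 times as high in mice 41 to 56 as in the others. The 7 hairpins between Rian and Mirg (109709060 to 109715791) had ratios of 16.7 to 45.4. The 3 hairpins between Meg3 and Rian (109585789 to 109586407) had a median of 10.3 and a highest of 10.5, and the 2 inside Rian (109611500 to 109611941) had 3.44 to 5.23. The 7 hairpins between Rian and Mirg rested on 14 to 29 reads each over all 44 other mice, and 23 to 30 of the 60 mice were at 0 for them. The hairpins of miR-453 and miR-496a-5p are thus inside Mirg and those of miR-379-5p and miR-1193-5p between Rian and Mirg. The 277 members averaging under 10 had a median ratio of 8.03, and the genes with 2 or more exon rows averaging under 10 a median of 7.04. The study's methods name a minimum average count of 500. On the deposited scale these low members do not meet it, nor do most members, whose median is 30.2. Those methods also name a filter on the correlations between exons over the samples. How either filter was applied to these members cannot be read from the table, so these ratios are a description.

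The 3′ bias gave a second pattern. In the 44 mice outside 41 to 56, a fit of log2 value on the bias with sex and phenotype as terms called 341 members, of which 237 rose and 104 fell as bias grew, where 34.6% of all 8535 genes rose and 34.2% fell. Pseudogenes rose in 146 of 231 cases and fell in 34, and protein coding members rose in 71 of 126 and fell in 40. Other small RNAs fell in 9 of 16 and rose in 1, and long non-coding RNAs fell in 8 of 12 and rose in 1. Of the members averaging at least 10 in these 44 mice, 237 of 387 rose and 90 fell. Among those, 6 of 9 other small RNAs fell and 1 rose, and 7 of 9 long non-coding RNAs fell and 1 rose. The median change per unit of bias was 0.32 on the log2 scale for members and -0.00041 for all genes. These calls rest on mice 4, 5, 62 and 63: without mouse 63 the fit called 275 members and 54.3% of all genes, and without all 4 mice it called 0 members and 0% of all genes, with 35 members and 7.57% of all genes at an unadjusted p under 0.05.

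The range is shown by 3 members. Gm9843 rose by 0.92 ± 0.15 per unit of bias and stood at 6712 in mouse 63, where the other 44 mice had a median of 2883. Usp29, which has a single exon row but 14 annotated exon blocks, fell by 1.47 ± 0.14 per unit of bias. It stood at 179 in mouse 63, its lowest value, against a median of 839 in the 44 mice. Nme1, a nucleoside diphosphate kinase, rose by 0.76 ± 0.10 and stood at 2158 in mouse 63, the highest of the 60 mice.

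**Figure D4:**
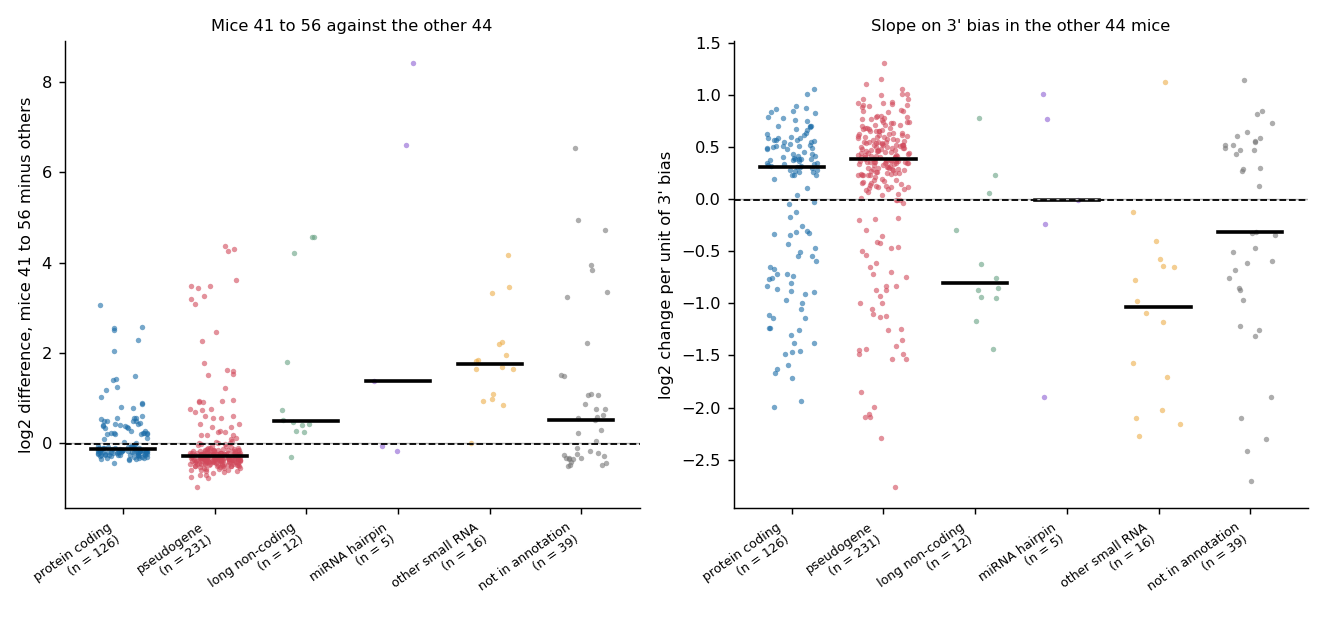
Left, log2 difference between mice 41 to 56 and the other 44 (vertical axis) for each of 429 tested members by class. Right, log2 change per unit of 3′ bias in those 44 mice. Each point is a gene, black bars are class medians, and the dashed line is the median of genes with 2 or more exon rows. Other small RNAs have medians of 1.76 on the left and -1.04 on the right, and pseudogenes of -0.29 and 0.38. Without the members that average 10 only through mice 41 to 56, the left medians are 1.64 for other small RNAs and 3.27 for the 4 remaining miRNA hairpins. Gm24245 and Gm23935 are among these hairpins. The right median of other small RNAs is then -0.98.

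The labels divide the mice by catalepsy, and responders were compared here with non-responders, whereas the study itself built networks from all 60 mice. No member passed the test between 30 responders and 30 non-responders (limma with sex as a term, adjusted p under 0.05), where 0.105% of all 8535 genes did. At an unadjusted p under 0.05 there were 16 members, or 3.73% of 429, against 6.49% of all genes, 12 of them higher in responders and 4 lower. edgeR and DESeq2 on recovered reads also called 0 members. In each, 14 members (3.26%) had an unadjusted p under 0.05, against 6.51% and 6.78% of all genes. The members' median log2 difference was -0.0072 and that of all genes -0.0033.

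The 5 members with the smallest p among those higher in responders were Gm12389, Pcdhb14, Ttc30b, Ccdc149 and Gm5067. Gm12389 is a pseudogene whose closest coding gene is the complex I subunit Ndufa13, at 88.1% identity. It ranged from 98.4 to 469 in responders, with a median of 234, and from 19.7 to 441 in non-responders, with a median of 154. The groups overlapped over most of this range, and the log2 difference of 0.63 ± 0.19 had a limma adjusted p of 0.244. Pcdhb14 had a median of 275 in responders (152 to 387) and 238 in non-responders (41.1 to 384), a log2 difference of 0.42 ± 0.15 with an adjusted p of 0.37. Its lowest non-responders lay below the lowest responder, and the ranges otherwise overlapped. Within the mice of at least 10000000 reads the log2 differences were 0.71 ± 0.25 for Gm12389 and 0.53 ± 0.18 for Pcdhb14, and within the mice of fewer reads 0.39 ± 0.22 and 0.22 ± 0.11.

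Ttc30b, an intraflagellar transport component, had medians of 251 and 225 in responders and non-responders and a log2 difference of 0.15 ± 0.05. For Ccdc149 the medians were 491 and 445, and for Gm5067, a pseudogene near Rrs1 in sequence, 61.1 and 32.4. In both, the ranges of the phenotypes overlapped and the adjusted p values were 0.455 and 0.473.

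The 5 members with the smallest p among those lower in responders were Nme1, Pcdhb2, Impdh2-ps, Tmem158 and Atpif1. Nme1 had a median of 944 in responders (622 to 2158) and 1122 in non-responders (849 to 1666), a log2 difference of -0.19 ± 0.07 with a limma adjusted p of 0.456. The highest responder is mouse 63. With 3′ bias as a further term, which called 0.68% of all genes, Nme1 was the 1 member called, at -0.23 ± 0.05 and an adjusted p of 0.0225. Without mouse 63 the adjusted p was 0.123 and without the 4 mice of strong bias 0.0849, and over all 17 fits the adjusted p ran from 0.0225 to 1. The difference was -0.15 ± 0.08 within the mice of at least 10000000 reads and -0.31 ± 0.12 within those of fewer. Nme1 shares exon sequence with the readthrough gene Gm20390 on the same strand, so its reads cannot be assigned to it alone.

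Pcdhb2 had medians of 91.6 in responders (10.6 to 158) and 107 in non-responders (29.6 to 245), the opposite order to Pcdhb14, with a log2 difference of -0.40 ± 0.18 and an adjusted p of 0.673. It fell by 1.99 ± 0.25 per unit of 3′ bias, with 50.1, 35.1, 29.6 and 10.6 in mice 4, 5, 62 and 63, and without these mice the difference was -0.40 ± 0.13 with an adjusted p of 0.228. Tmem158, a Ras-induced membrane protein gene, had medians of 3077 and 3588, the mitochondrial ATPase inhibitor gene Atpif1 746 and 843, and Impdh2-ps 492 and 499, all with overlapping ranges and adjusted p of 0.706 to 0.817. The 12 Pcdhb members had 2 at an unadjusted p under 0.05 and a median log2 difference of -0.05, and the 12 other tested protocadherin genes had 0 and -0.06.

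**Figure D5:**
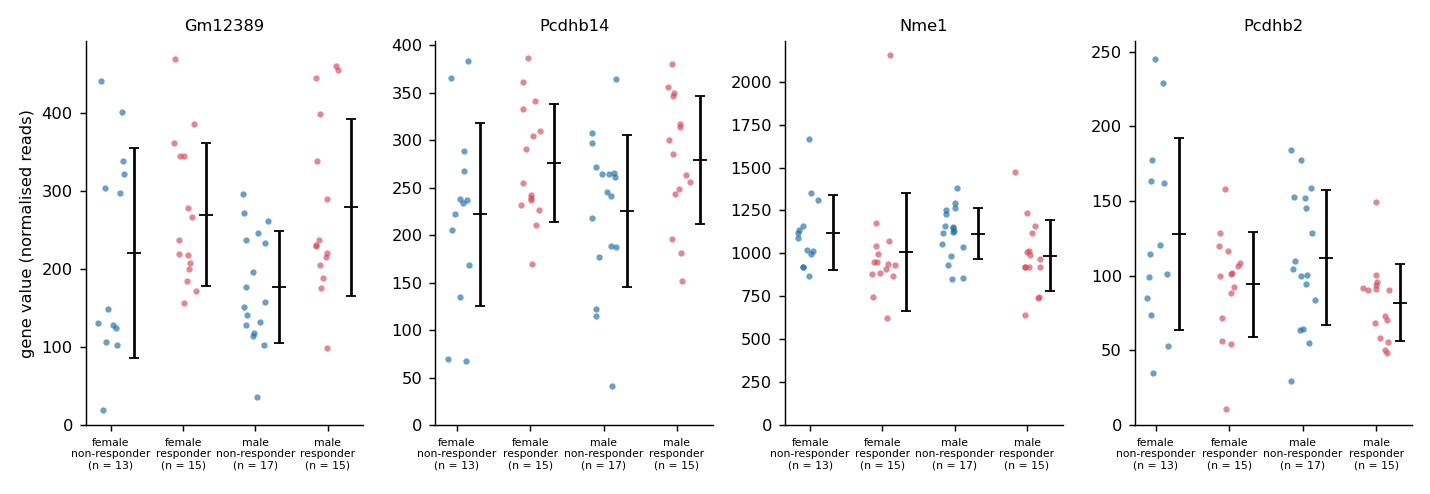
Gene value (vertical axis, normalised reads, from 0) of Gm12389, Pcdhb14, Nme1 and Pcdhb2 in each mouse by sex and phenotype, responders in red and non-responders in blue, with the mean and SD of each group beside its points. The groups overlap in all panels, and the Nme1 value of 2158 belongs to mouse 63.

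Other lists of members showed no call between phenotypes either. None of the 440 members with predicted-gene or pseudogene symbols, 255 of them tested, was called, and 5 had an unadjusted p under 0.05, where 0.105% and 6.49% of all genes did. The lists of G protein-coupled receptors (2 tested), histones (5), leucine-rich repeat proteins (3), kelch and BTB proteins (2), MAGE and retrotransposon-derived genes (3), ubiquitin genes (2), imprinted genes (2), RIKEN genes (8), non-coding RNA genes by symbol (6), respiratory chain genes (8), synaptic small proteins (1) and oligodendrocyte markers (1, Olig1) had 0 at an unadjusted p under 0.05. The highest respiratory chain members were Cox6c2 at 727, Cox17 at 657, Ndufs6b at 430 and Atp5k-ps2 at 308, and 6 of the 8 were lower in mice 41 to 56, where 27.9% of all genes and 152 of 231 pseudogene members were. No heat shock gene was a member. Summed markers overlapped between responders and non-responders for every marker list with genes in the table, for example 93880 to 252400 for oligodendrocytes in non-responders and 99670 to 272700 in responders.

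Between 32 males and 28 females no member was called either, where 0.0351% of all genes were (limma, phenotype as a term). At an unadjusted p under 0.05 there were 3 members, against 2.04% of all genes. edgeR also gave 0 called and 3, against 2% of all genes. The Cd9 copy Cd9-ps had a median of 24.3 in males (8.95 to 36.3) and 20.9 in females (6.79 to 37.9), a log2 difference of 0.35 ± 0.13. Tusc1 had medians of 110 and 97.8, and Gm15950 31.4 and 24.9. Those lower in males were Gm11633 with medians of 256 and 274, Gm9575 with 550 and 597, and Gm12565 with 15.0 and 18.9. All 6 had an adjusted p of 1 and overlapping ranges.

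The sex by phenotype interaction called 0 members and 0% of all genes by limma, with 0 members at an unadjusted p under 0.05 against 0.562% of all genes, and edgeR gave 0 and 0. Hcfc1r1 had the smallest p of the members, 0.054, with medians of 167 and 181 in female non-responders and responders and of 180 and 161 in the males. Gm9797, a copy of Timm8a1 without a mismatch, had 43.5 and 37.3 in females and 37.7 and 39.2 in males, and Med20, a Mediator subunit, 335 and 330 in females and 345 and 331 in males. Their adjusted p was 1.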

How the data were processed

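PolyA-selected libraries of 60 striata were made by a protocol that, per the labels, includes no strand-marking step, so a gene and its antisense partner cannot be told apart. The authors aligned reads with Bowtie 0.12.7 to NCBI m37 (mm9), summarised them over Ensembl 59 union exons and scaled them by edgeR 3.4.2 upper quartile factors. Their methods describe a filter on average counts and on exon correlations that left 9066 genes. The deposited gene table is a signal, reads divided by a size factor per mouse, and whole reads were recovered with a largest deviation of 0.00014 reads. The deposited exon table holds such values rounded to whole numbers, treated here as a score. limma 3.58.1 was fitted to log2(value + 1) of the 8535 genes averaging at least 10, with Benjamini-Hochberg adjustment over all of them. The added 1 shrinks differences of low genes, but limma estimates lay on either side of those of edgeR (TMM) and DESeq2. Between phenotypes they were 0.766 against 0.594 and 0.552 for Gm5067, and -0.395 against -0.44 and -0.444 for Pcdhb2. edgeR 4.0.16 and DESeq2 1.42.0 on recovered reads were alternatives, calling 7 and 23 genes between phenotypes, none of them members. Classes, exon blocks and coordinates came from GENCODE M21 (GRCm38), mature miRNAs from RefSeq and copies from BLAST 2.17.0; 72 members had no entry. The test between responders and non-responders was run on simulated data, with 200 of 8535 genes changed by 0.5 on the log2 scale. limma, edgeR and DESeq2 each recovered 98.5% of the changed genes, with 16, 13 and 22 false calls. Recovery among members alone and in the other comparisons is not given. Members, lists and tests were chosen with earlier results of these data known. Named members had the smallest p in each comparison, the highest value or value per kilobase, an extreme CV or exon to gene ratio, or the highest value in a list. Gm22009, 4632427E13Rik, Snord107, the chromosome 12 hairpins, the retrocopy pairs, Hist1h1e by mouse set and the split by mouse number were chosen after their values were seen. Each library is a separate mouse, and p-values measure the spread between mice.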

Additional observations from a re-analysis of the deposited data

How the results depend on the processing

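No member was called between phenotypes in 15 of 16 other fits, and with 3′ bias as a term the count was 1. At an unadjusted p under 0.05 the 16 members became 29 with the read total class as a term, 39 with 3′ bias as a term, 26 without mouse 63 and 28 without mice 4, 5, 62 and 63, while all genes rose from 6.49% to 7.52%, 10.9%, 7.45% and 8.12%, each above the members' share (6.76%, 9.09%, 6.06% and 6.53%). They were 8, 5 and 10 in mice of low read total, females and males alone. These are 1.86%, 1.17% and 2.33% of members, against 1.87%, 2.12% and 4.3% of all genes. Sex and interaction counts stayed at 0 in the 7 and 4 other fits run. The median CV (0.251) was 0.262 on reads scaled to library total, 0.22 and 0.19 at an average of 50 and 500, 0.242 in mice of high read total, 0.234 without mouse 63 and 0.214 without the 4 mice, and unchanged on exon values. Nme1 was the member called with 3′ bias as a term. The members called for mice 41 to 56 (343 of 429, where 4585 of 8535 genes were) became 183 with 3′ bias as a term, where 1574 genes were called. Without a filter they were 621 of 706, where 5158 of 9064 genes were called. Those for 3′ bias (341) became 0 without the 4 mice, where 0% of all genes were called. The share within 1% (84.1%) became 99.6% within 5%, 100% at an average of 50 or of 500 and 41.1% in each mouse. The added fits without the 4 mice, in low-total mice or in 1 sex, and both splits by mouse were chosen after seeing the data. No paired analysis was possible because the labels give the mice no shared replicate numbers. Depth limits the 277 members averaging under 10.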
